A study of Mus musculus with 2 samples.

Results

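MHC class I genes and the genes that load peptides onto them were measured in 2 polyA RNA-seq libraries. The libraries were made from megakaryocytes, the large platelet-forming cells, of mouse embryos. The members are 10 of 43346 Ensembl genes in the deposited tables and were chosen by name, whatever their level: the heavy chains H2-K1, H2-D1, H2-T23 and H2-M3, the light chain B2m, the peptide transporter subunits Tap1 and Tap2, the loading factor Tapbp, the transcriptional regulator Nlrc5 and the peptidase Erap1. Per the labels, both libraries were primary cells of embryos of age 14.5 days with the sexes pooled, and no treatment, genotype or strain is named. Both belong to 1 group and cite the same biosample and donor, so their spread may be partly technical, and no condition could be compared.

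MHC class I molecules show peptides from inside the cell to cytotoxic T cells, and platelets and their precursors are known to carry them. The proteasome cuts proteins into peptides, the TAP1 and TAP2 transporter moves these into the endoplasmic reticulum, ERAP1 trims them, and tapasin, the product of Tapbp, holds an empty heavy chain and beta-2-microglobulin at the transporter until a peptide fits. NLRC5 is known to switch on class I genes together with factors of the X and Y boxes of their promoters, and interferons raise the whole pathway.

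Replicate 1 held 42099216 expected counts (estimated fragments per gene) and replicate 2 held 2275922, so at 3 counts a count of 0 allows 0.0713 CPM (counts relative to library size) in the deeper library and 1.32 CPM in the other. Megakaryocyte markers were present, with 12 of 12 at a mean TPM (a level scaled to library and transcript length) of at least 1 and summed levels of 18456 and 26727 TPM in replicates 1 and 2. Markers of other cell types were also present. Macrophage markers reached that level in 10 of 12 cases and summed to 914 and 240 TPM. Vcam1 and Mrc1 were at 0 in replicate 2, but had only 5 and 1 counts in the deeper replicate 1. Granulocyte markers reached a mean of 1 TPM in 9 of 10 cases and summed to 862 and 150 TPM. Ctsg, S100a8, S100a9, Ltf and Camp were at 0 in replicate 2, with 39 (S100a8) to 1370 (Ctsg) counts in replicate 1. Erythroid markers had the largest sum of the other cell types, at 9589 and 15959 TPM, and reached that level in 7 of 10 cases. Of the remaining lists, endothelial markers reached it in 4 of 8 cases (219 and 301 TPM summed), hepatocyte in 2 of 5, dendritic in 2 of 8 and lymphoid in 1 of 10, with Alb, Ttr, Xcr1, Cd3e, Cd3g and Klrb1c at 0 in both libraries. These were bulk samples, so fewer cells of a type and less RNA per cell cannot be told apart.

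The members spanned a wide range of levels. Tapbp, H2-D1, H2-K1 and Tap2 were at over 90 TPM in both libraries, and H2-M3 and Erap1 at under 1 TPM. Of the 10 members, 8 had a mean of at least 1 TPM, a level reached by 22.7% of all genes, and the median member stood at 69.3 TPM in replicate 1 and 27.4 TPM in replicate 2. For genes at a mean of at least 1 TPM these medians were 11.3 and 7.54 TPM. Tapbp stood highest, followed by H2-D1, H2-K1, Tap2, B2m, H2-T23, Tap1, Nlrc5, H2-M3 and Erap1. Means are given ± SD over both libraries (n = 2), and pairs of values are replicate 1 and then replicate 2. Along this order the ranges of neighbours did not overlap between Tapbp and H2-D1, between Tap1 and Nlrc5, and between H2-M3 and Erap1, while all other neighbours overlapped. Most of the Tapbp TPM came from short transcripts, described further on.

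**Figure D1:**
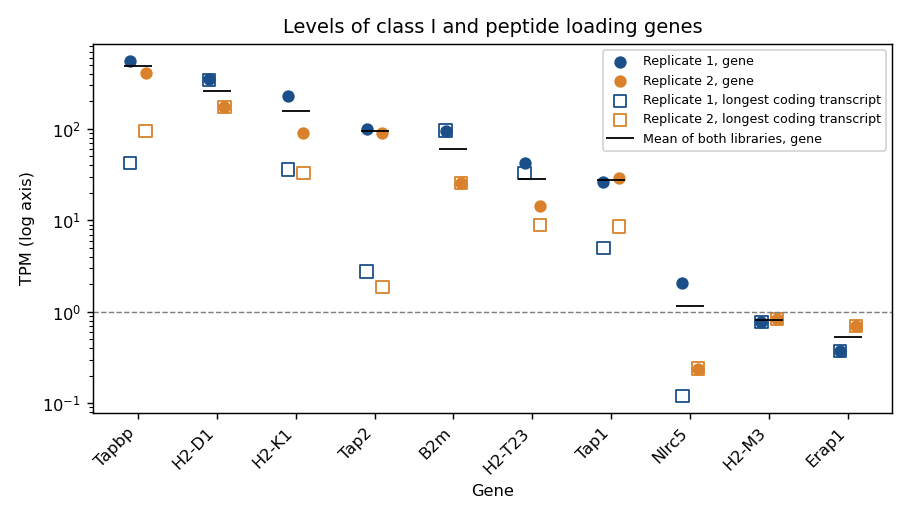
Level of each gene in TPM on a log axis, ordered by the mean of both libraries. Filled circles are the gene in replicates 1 and 2, black bars their mean, open squares the longest protein coding transcript alone, and the dashed line marks 1 TPM; H2-M3 and Erap1 lie under it in both libraries, and the squares of Tapbp and Tap2 lie far under their circles.

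Among the heavy chains, the classical genes H2-D1 and H2-K1, whose products present peptides to most cytotoxic T cells, were highest. H2-D1 (ENSMUSG00000073411.7, chromosome 17, 35262730 to 35267499, 8 exons, GRCm38) was at 348 TPM in replicate 1 and 175 in replicate 2, from 26587 and 637 counts. H2-K1 (ENSMUSG00000061232.11, chromosome 17, 33996017 to 34000347, 8 exons) had 227 and 91.0 TPM, from 7643 and 166 counts. H2-D1 exceeded H2-K1 in both libraries, by 1.53-fold in replicate 1 and 1.93-fold in replicate 2. With the longest coding transcripts alone the folds were 9.50 and 5.32. Together these genes held 36.5 ± 6.58% of the summed TPM of the 10 members (41.1% and 31.8%).

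The nonclassical heavy chains were lower. H2-T23 (ENSMUSG00000067212.8, chromosome 17, 36029773 to 36032855), which encodes Qa-1, the ligand that presents leader peptides of other class I chains to NK cell receptors, had 42.7 and 14.3 TPM from 2519 and 37 counts. H2-M3 (ENSMUSG00000016206.6, chromosome 17, 37270220 to 37274484), which presents peptides with a formyl group, had 0.780 and 0.830 TPM. Only 40 and 2 counts lay behind these values, and the exact 95% Poisson interval of the count in replicate 2 ran from 0.242 to 7.22, counting error only. H2-M3 was thus the lowest heavy chain of the 4 in both libraries.

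B2m (ENSMUSG00000060802.8, chromosome 2, 122147686 to 122153083, 4 exons), the light chain that every class I molecule needs to fold, stood at 96.0 TPM in replicate 1 against 25.7 in replicate 2, from 2728 and 34 counts. It was below H2-D1 and H2-K1 in both libraries. The summed TPM of the 4 heavy chains was 6.45-fold that of B2m in replicate 1 and 11-fold in replicate 2. Restricted to the longest coding transcript of H2-K1, however, the ratio of H2-K1 to B2m was 0.377 in place of 2.37 in replicate 1 and 1.28 in place of 3.54 in replicate 2. Over both libraries, the protein coding genes nearest to B2m in log2(TPM + 1), of 21473 compared, were Hexim1, Psmd2 and Mars, at distances of 0.0391, 0.0453 and 0.0525, which over 2 libraries describes level more than pattern.

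The promoters of H2-K1, H2-D1, H2-M3 and B2m are shown because their levels lie far apart while several class I elements recur in them. RefSeq promoters on GRCm38.p6 were found for 8 of the 10 members, and Tap2 and Nlrc5 had no entry. Each line gives the 250 bases before a RefSeq start site, 5′ to 3′ on the strand of the gene. The H2-D1 window lies inside the quantified H2-D1-202, which GENCODE starts upstream at 35262730, so the annotations place its start differently. Capitals mark 5 motifs searched on both strands, namely the kappa B element of class I genes, an interferon element of class I genes, the core of an interferon-stimulated response element, the X2 or CRE core TGACG and the Y box CCAAT, which reads ATTGG on the other strand. In H2-K1 and H2-D1 the first run of capitals is the kappa B element and the next the interferon element. The interferon element was chosen after the H2-K1 and H2-D1 promoters had been read.
H2-K1, chr17:34000348-34000597, minus strand: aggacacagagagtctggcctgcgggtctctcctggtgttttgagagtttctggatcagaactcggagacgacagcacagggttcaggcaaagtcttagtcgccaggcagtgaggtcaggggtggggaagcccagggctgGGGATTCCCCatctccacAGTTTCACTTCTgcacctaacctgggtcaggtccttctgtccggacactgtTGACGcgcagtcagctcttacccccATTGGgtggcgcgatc
H2-D1, chr17:35262844-35263093, plus strand: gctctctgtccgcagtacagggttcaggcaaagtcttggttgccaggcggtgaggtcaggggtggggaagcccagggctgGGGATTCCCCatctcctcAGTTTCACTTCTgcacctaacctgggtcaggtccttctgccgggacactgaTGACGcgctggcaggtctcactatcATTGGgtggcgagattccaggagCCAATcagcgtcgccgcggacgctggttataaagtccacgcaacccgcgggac
H2-M3, chr17:37269984-37270233, plus strand: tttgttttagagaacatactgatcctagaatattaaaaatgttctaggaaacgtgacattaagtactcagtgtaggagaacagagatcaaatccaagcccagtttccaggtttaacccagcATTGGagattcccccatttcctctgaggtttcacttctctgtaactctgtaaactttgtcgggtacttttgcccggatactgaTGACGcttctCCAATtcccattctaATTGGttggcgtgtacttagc
B2m, chr2:122147437-122147686, plus strand: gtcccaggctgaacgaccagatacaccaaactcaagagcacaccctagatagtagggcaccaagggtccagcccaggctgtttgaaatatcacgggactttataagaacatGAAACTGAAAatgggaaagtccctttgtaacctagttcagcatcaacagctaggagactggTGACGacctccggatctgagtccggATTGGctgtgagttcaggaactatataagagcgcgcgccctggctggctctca

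H2-K1 and H2-D1 carried the same kappa B, interferon, TGACG and CCAAT letters in the same order, and their printed windows aligned over 177 columns with 91.0% identical bases. The kappa B letters occurred in 0.0852% of the 32851 RefSeq promoter windows of this length and the interferon letters in 0.0274%, and H2-K1 and H2-D1 were the only genes whose window held the kappa B, TGACG and CCAAT letters together. H2-M3, with 0.805 ± 0.0354 TPM, held TGACG and CCAAT but not the exact kappa B or interferon letters, and its window aligned with that of H2-K1 over 242 columns with 59.9% identity and with that of H2-D1 over 126 columns with 71.4%. The H2-K1 window aligned with that of Tap1 over 190 columns at 57.9% and with that of B2m over 79 columns at 62.0%. The 59.9% alone thus does not set H2-M3 apart, though these local alignments differ in length. With H2-D1, the 71.4% of H2-M3 was the highest after H2-K1, and the next was H2-T23 at 64.9% over 97 columns. B2m held the response element core at 139 bases before its start, as GAAACTGAAA, followed by TGACG and CCAAT. The response element core was found in 2.98% of all windows, and among the members in B2m and H2-T23. TGACG occurred in 17.8% of windows and in 5 of the 8 members, and CCAAT in 33.8% and in 7 of the 8, with Erap1 as the member that held none of the letters. A match is a description of these letters and not evidence of binding.

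In the transport and loading step, Tapbp and Tap2 were high and Tap1 was intermediate. Tapbp (ENSMUSG00000024308.10, chromosome 17, 33915899 to 33929292) had 557 and 410 TPM from 12297 and 741 counts. Tap2 (ENSMUSG00000024339.8, chromosome 17, 34203527 to 34216321) had 99.5 and 90.2 TPM from 6120 and 187 counts. Tap1 (ENSMUSG00000037321.13, chromosome 17, 34187553 to 34197225) had 26.1 and 29.1 TPM from 2602 and 140 counts. All 3 lie, with the 4 heavy chains, on chromosome 17 between 33915899 and 37274484. The TAP transporter is a heterodimer of both subunits, and gene TPM put Tap2 at 3.81-fold and 3.09-fold the level of Tap1. That order turned when the longest coding transcripts alone were compared (0.556 and 0.217). The Tap1 form in these ratios, Tap1-206, had 4.96 and 8.56 TPM. Another coding form left out of them, Tap1-201, held 21.1 and 19.3 TPM.

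Nlrc5 and Erap1 were low in both libraries and rested on few counts in replicate 2. Nlrc5 (ENSMUSG00000074151.8, chromosome 8, 94434356 to 94527272, 49 exons), the class I transactivator, reached 2.06 TPM in replicate 1 but 0.240 in replicate 2, from 91 and 3 counts. Erap1 (ENSMUSG00000021583.6, chromosome 13, 74639568 to 74693201, 19 exons), the aminopeptidase that trims peptides in the endoplasmic reticulum, had 0.370 and 0.700 TPM, from 56 and 5 counts. Exact 95% Poisson intervals of the counts in replicate 2 ran from 0.619 to 8.77 for Nlrc5 and from 1.62 to 11.7 for Erap1. The deposited posterior mean TPM of Nlrc5, another estimate of the same quantifier, was 2.17 in replicate 1 and 2.01 in replicate 2, so its TPM in replicate 2 depended on the estimate. Neither library lacked these transcripts, but the counts in replicate 2 were too few to order them.

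The transcript tables showed how much of these levels came from full-length coding forms. The 10 members had 43 annotated transcripts, and B2m, H2-M3 and Erap1 had 1 each. H2-D1 was almost wholly its full-length form H2-D1-202, at 98.5% of gene TPM in replicate 1 and 100% in replicate 2. H2-T23-201, the coding form, took 77.3% and 62.0%, and the rest of H2-T23 fell on retained-intron forms, of which H2-T23-204 took 13.9% and 27.3%. Tap1-201, a coding form of 2614 bases, took 80.9% and 66.3%. Most of the rest was Tap1-206, the longest coding form of Tap1 (2953 bases), at 19.0% and 29.4%.

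For Tapbp, Tap2 and H2-K1, as for Tap1, forms other than the longest coding transcript held most of the TPM. For Tapbp, the full-length Tapbp-201 (2894 bases) took 7.64% of TPM in replicate 1 and 23.1% in replicate 2. The 413-base Tapbp-203 took 51.8% and 19.7%, and the 649-base Tapbp-202, which is annotated as a processed transcript, took 39.5% and 56.7%. By counts, which are not divided by length, Tapbp-201 was the leading form in both libraries at 37.4% and 65.1%. Its own level was 68.6 ± 36.8 TPM, against 483 ± 104 TPM for the gene.

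In Tap2 the longest coding form was a small part of the gene. The full-length Tap2-201 (3442 bases) had 2.76 and 1.86 TPM, or 2.77% and 2.06% of the gene. Tap2-202, a form with a retained intron that shares 93.7% of its bases with the exons of Tap2-201, took 87.9% and 81.5% of counts and 56.8% and 37.7% of TPM. The 378-base Tap2-204, all of whose bases lie in exons of Tap2-201, took 6.26% and 12.4% of counts but 40.4% and 60.3% of TPM. Fragments common to several forms are divided by the quantifier, so the share of full-length Tap2 is an estimate.

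For H2-K1, the 871-base coding form H2-K1-206 took 82.6% and 62.0% of TPM and the full-length H2-K1-201 (1605 bases) took 15.9% and 36.2%. In counts, H2-K1-206 led in replicate 1 at 70.9% and H2-K1-201 led in replicate 2 at 53.8%. Nlrc5 in replicate 1 was mainly the retained-intron form Nlrc5-206 at 76.7% of TPM, whereas its 3 counts in replicate 2 were all given to the full-length Nlrc5-201. The form with the largest share of TPM was the same in both libraries for H2-K1, H2-D1, H2-T23 and Tap1, and differed for Tap2, Tapbp and Nlrc5, so it was shared by 4 of 7 members with several transcripts. Among 4695 genes with several transcripts and a mean of at least 5 TPM it was shared by 66.2%; Nlrc5 lay under that minimum. By counts the leading form was shared by 5 of the 7, all but H2-K1 and Nlrc5. With the longest coding transcript of each member alone, H2-K1 and H2-D1 held 67.8% and 59.6% of the summed TPM, and 7 members had a mean of at least 1 TPM.

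**Figure D2:**
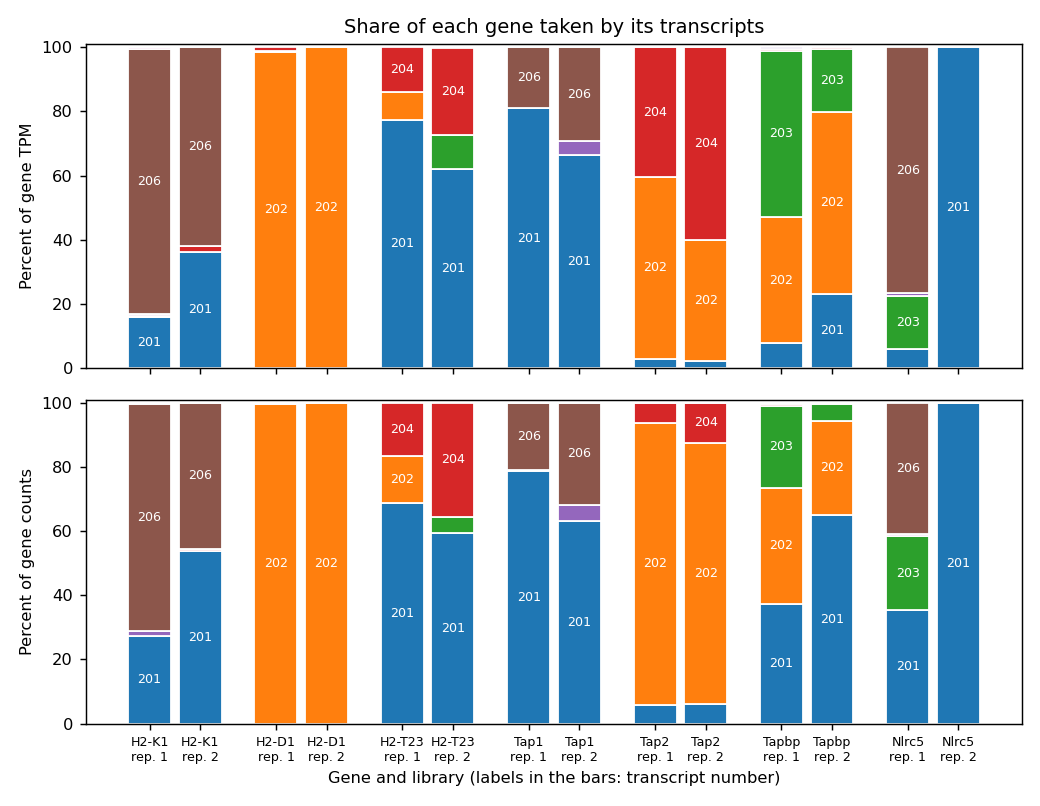
Percent of gene TPM (top) and of gene expected counts (bottom) taken by each annotated transcript of the 7 members with several transcripts, in replicates 1 and 2; numbers in the bars are transcript numbers. Tap2-202 fills most of the Tap2 bars in counts, while the short Tap2-204 and Tapbp-203 widen in TPM.

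The libraries were then set against each other. With 1 library on each side, a ratio compares these libraries and has no replicate check, and no test was made. Counts were scaled by TMM, and ratios are replicate 2 over replicate 1 with exact 95% intervals of counting error. Of the 10 members, 7 had a mean of at least 10 CPM, and H2-M3, Nlrc5 and Erap1 did not. B2m and H2-T23 were at least 2-fold lower in replicate 2, and 0 of the 7 were at least 2-fold higher. Over the 5926 genes at this level, 25.9% were at least 2-fold lower and 17.1% at least 2-fold higher, so the members did not stand out by this count. Under scaling by total counts the split over all genes was 1999 lower and 570 higher in place of 1534 and 1015, and H2-K1 and H2-D1 also passed 2-fold.

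Among the 7 members, the heavy chains and B2m all had ratios under 1 under each way of forming the ratio, as did Tap2, while Tap1 and Tapbp were above 1 in counts scaled by TMM. B2m had a ratio of 0.293 (interval 0.203 to 0.411) and H2-T23 one of 0.342 (0.243 to 0.477). H2-K1 had 0.511 (0.435 to 0.596) and H2-D1 had 0.563 (0.520 to 0.610). Of the transporter subunits, Tap2 had 0.719 (0.618 to 0.831) and Tap1 had 1.27 (1.06 to 1.5). The ratio of Tapbp was 1.42 (1.31 to 1.53) from counts, but 0.737 from gene TPM and 1.00 after removal of the GC trend, so its direction was not stable. That of Tap1 was 0.995 when counts were scaled by library total. The median log2 ratio was -0.83 for the 7 members and -0.06 for all genes at this level.

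B2m and H2-T23 were at least 2-fold lower under all 6 ways of forming the ratio, with ranges of 0.231 to 0.435 and 0.269 to 0.374. H2-K1 was so under 3 and H2-D1 under 1 of the 6, and both stayed under a ratio of 1 in all 6. B2m is poor in GC (41.2%), and with the GC trend removed its ratio was 0.435. Intervals were wide for the low members. H2-M3 had 1.18 (0.138 to 4.53), Nlrc5 had 0.775 (0.157 to 2.34) and Erap1 had 2.10 (0.656 to 5.20), and all 3 intervals included 1. Most nucleated cells carry class I molecules, those of other types included. Of 12 macrophage markers, 7 met the minimum of 10 CPM, and all 7 had ratios of at most 0.5. Of 10 granulocyte markers, 5 met it, and all 5 had such ratios. For comparison, 25.9% of all genes at this minimum were at least 2-fold lower. Several of these markers met the minimum through replicate 1 alone. Among them were Marco (2282 and 1 counts), Cd68 (4632 and 18), Ctsg (1370 and 0) and Elane (745 and 9). Under the minimum, the macrophage marker Cd14 (675 and 5 counts) had a ratio of 0.174 (0.0564 to 0.409). Adgre1 (585 and 1 counts) had 0.0402 (0.00102 to 0.225) and Fcgr1 (161 and 4 counts) had 0.584 (0.157 to 1.53). Vcam1 and Mrc1, also under it, had 0 counts in replicate 2. All 12 macrophage markers together held 914 and 240 TPM. Of megakaryocyte markers at the minimum, 2 of 12 were at least 2-fold lower and 4 at least 2-fold higher. For endothelial markers these counts were 2 and 1 of 4, and for erythroid markers 1 and 1 of 6. The 1 hepatocyte marker at the minimum was at least 2-fold lower and the 1 dendritic marker was not. The part of macrophages, granulocytes or any other cell type in the lower B2m and H2-T23 was not tested.

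**Figure D3:**
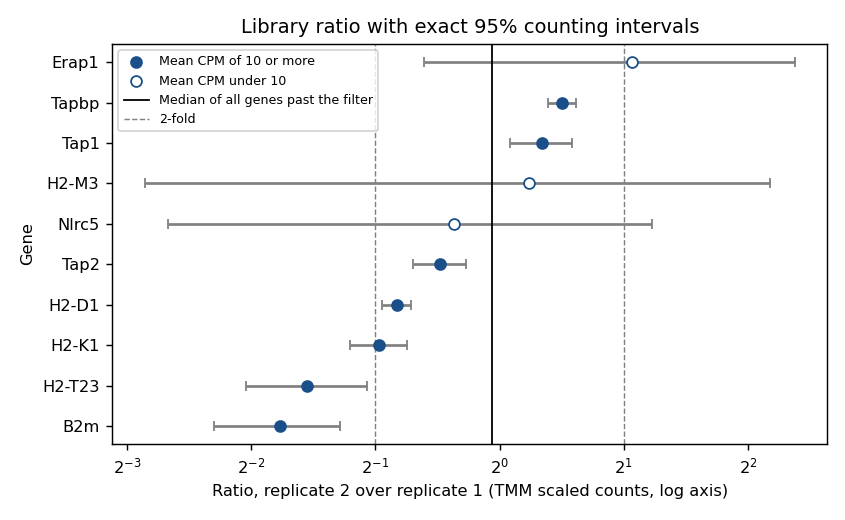
Ratio of replicate 2 over replicate 1 for each gene on a log axis, from TMM scaled counts, with exact 95% counting intervals as bars. Filled circles had a mean of at least 10 CPM, the black line is the median of all 5926 such genes and dashed lines mark 2-fold; B2m and H2-T23 lie left of the lower line and Tap1 and Tapbp right of the median.

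Other genes of the pathway were taken from lists of function. In the peptide loading and folding list, which also holds B2m, Tap1, Tap2 and Tapbp, 8 of 8 genes had a mean of at least 1 TPM. Pdia3, the disulfide isomerase ERp57 that pairs with tapasin, was highest at 961 ± 912 TPM (316 and 1606 TPM), with a ratio of counts of 2.80 (2.61 to 3.0). Calr, the chaperone calreticulin, had 491 and 242 TPM, and Canx, the chaperone calnexin that first holds the heavy chain, had 75.2 and 4.62 TPM with a ratio of 0.158 (0.102 to 0.234). Tapbpl, the tapasin relative TAPBPR that edits peptides, had 5.81 and 4.64 TPM. In this list B2m and Canx (2 of 8) were at least 2-fold lower and Pdia3 (1 of 8) was at least 2-fold higher. Over all genes at the minimum of 10 CPM these shares were 25.9% and 17.1%, so the list did not stand out by this count.

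All 5 immunoproteasome and PA28 genes were lower in replicate 2, and their summed level was 464 and 135 TPM. At least 2-fold lower were 4 of the 5, against 25.9% of all genes at the CPM minimum. The interferon-inducible subunits of this list change which peptides the proteasome makes. Psmb10 had 134 and 27.3 TPM (ratio 0.225, interval 0.171 to 0.292) and Psmb8 had 86.5 and 22.3 TPM (0.256, 0.177 to 0.359). Psme1 had 0.486 (0.392 to 0.597) and Psme2 had 0.461 (0.303 to 0.673), while Psmb9, at 27.7 and 15.7 TPM, was the member short of 2-fold at 0.518 (0.337 to 0.763). The list had a median log2 ratio of -1.12, against -0.06 for all genes at the CPM minimum. The constitutive catalytic subunits, which the products of Psmb8, Psmb9 and Psmb10 replace, had a like median of -1.09 over the 2 genes at the CPM minimum. Psmb5 had 237 and 116 TPM and Psmb6 had 218 and 81.4 TPM, while Psmb7 had 488 and 1 counts.

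In the peptide trimming list, which holds Erap1 and mostly cytosolic peptidases, 6 of 8 genes had a mean of at least 1 TPM. Thop1 had 60.0 and 67.0 TPM, Npepps 48.3 and 29.8 TPM, Blmh 30.1 and 4.71 TPM, Lap3 11.6 and 15.2 TPM, and Nrd1 14.1 and 4.94 TPM. Tpp2 reached 2.31 and 4.34 TPM. Lnpep, the relative of ERAP1 that trims peptides in endosomes, had 92 counts in replicate 1 and 0 in replicate 2. Of the 5 genes at the CPM minimum, 4 were at least 2-fold lower in replicate 2, against 25.9% of all genes at that minimum. Thop1 had a ratio of 1.30 (1.16 to 1.45). Blmh (1724 and 13 counts) and Lap3 (960 and 18 counts) met the minimum through replicate 1 alone. Lap3, higher in TPM in replicate 2, was among the lower by counts at 0.441 (0.260 to 0.701).

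Of 22 other class I and class I-like genes, 12 had a mean of at least 1 TPM. Fcgrt, the neonatal Fc receptor heavy chain, led at 59.5 and 25.1 TPM, followed by H2-Q4 at 44.7 and 14.4 TPM and H2-Q7 at 19.4 and 3.27 TPM. All 3 were at least 2-fold lower in replicate 2, and they were the 3 that met the CPM minimum, H2-Q7 through replicate 1 alone (1036 and 6 counts). Over all genes at that minimum, 25.9% were at least 2-fold lower. Under that minimum, and chosen after their values were seen, H2-Q10 and H2-Bl went the other way. H2-Q10 had 42 and 20 counts with a ratio of 11.2 (6.23 to 19.5), and H2-Bl had 59 and 18 counts with a ratio of 7.17 (3.98 to 12.3). H2-T3, H2-M1, H2-M5, H2-M9, H2-M10.1 and Azgp1 had 0 counts in both libraries. Members of the H2-Q and H2-T families share sequence, so their single values are uncertain.

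Among 22 regulators, Nlrc5 included, Jak1 (58.2 and 83.0 TPM), Rela (65.9 and 68.3 TPM) and Irf2 (26.9 and 104 TPM) were highest and Rfx5, an X-box factor, was lowest with 68 and 0 counts. The median log2 ratio was 0.02 over 15 genes at the CPM minimum. Of these 15, 3 were at least 2-fold lower and 2 at least 2-fold higher, against 25.9% and 17.1% of all genes. Chosen after their values were seen, Irf8 (ratio 0.345) and Rfxap (0.427) were at least 2-fold lower, and Irf2 (4.26) and Nfyb (2.75) at least 2-fold higher. Irf1, which drives class I genes after interferon, had 4.87 and 1.01 TPM from 207 and 2 counts.

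MHC class II genes, which mark professional antigen presenting cells, were scarce beside class I. Of 11, 5 had a mean of at least 1 TPM, led by H2-DMa (13.5 and 21.8 TPM), Cd74 (19.8 and 11.6 TPM) and Ctss (23.8 and 3.57 TPM). The chains H2-Aa and H2-Ab1 had means of 0.845 and 0.425 TPM. H2-Eb1, another chain, had a mean of 1.30 TPM from 0 and 5 counts. Ciita, the class II transactivator and relative of NLRC5, had 47 and 0 counts.

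**Figure D4:**
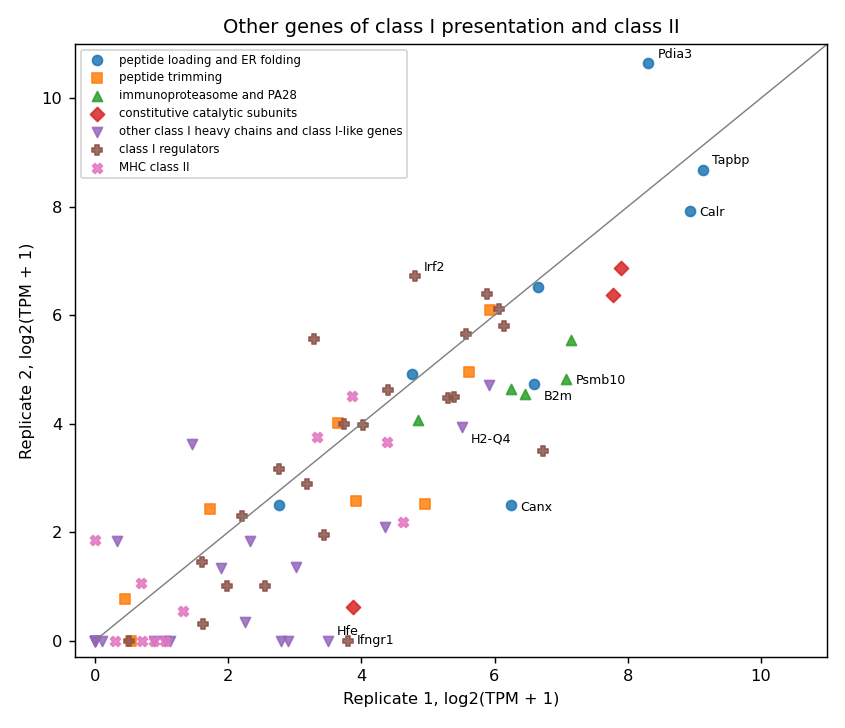
Level of each listed pathway gene as log2(TPM + 1) in replicate 1 (x axis) and replicate 2 (y axis), with a symbol for each list and a line of equal level. The 5 immunoproteasome and PA28 genes lie under the line, Pdia3 and Irf2 above it.

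Near-identical copies and overlapping genes limit some values. In windows of 50 bases, 28.8% of H2-T23-201, 14.3% of H2-D1-202 and 8.79% of H2-K1-201 also occurred in transcripts of other genes, most often H2-T-ps, H2-Q1 and H2-D1. For the other 7 members the share was at most 2.00%. The quantifier's own spread of the count was 25.2 of 2519 for H2-T23, 30.4 of 26587 for H2-D1 and 2.64 of 7643 for H2-K1 in replicate 1. The antisense gene A930015D03Rik covers all of H2-T23 and had 104 and 0 counts, and Zbtb22 overlaps Tapbp on the same strand over 3422 bases and had 4153 and 166 counts. The start of Tap1 overlaps that of Psmb9 on the opposite strand over 212 bases. Class I genes differ between mouse strains, and how the unnamed strain compares with the reference alleles was not tested.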

How the data were processed

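RNA of 2 mouse megakaryocyte libraries (1 group) was quantified by the authors against assembly mm10 with annotation M4, per the deposited file lists. The sources used here do not give the aligner or quantifier. Expected counts are the authors' estimated fragments per gene or transcript, which need not be whole. TPM and FPKM are the authors' values per length and depth. The deposited posterior spread of counts is a score of the quantifier. Isoform percentages deposited by the authors were recomputed as a percent of summed transcript TPM or counts.

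Of the rows, 43346 Ensembl genes were used, and numeric and control rows, which held 15 counts in replicate 1, were left out. Symbols (98.0% of genes), positions and exons came from GENCODE M21 on GRCm38, so exons of H2-K1, Tapbp, Nlrc5 and Erap1 transcripts can differ from those used by the authors. Counts were rounded for TMM in edgeR 4.0.16 (R 4.3.3), with factors of 1.13 and 0.887, and DESeq2 1.42.0 gave alternative size factors. A count of 0 was set to 3. GC trends were medians of the log2 ratio in 20 bins. Intervals are at 95% (Clopper-Pearson for ratios) and cover counting error only. The ratio code was tested on simulated data. Python 3.11.15, scipy 1.17.1, Biopython 1.88 (local alignments) and matplotlib 3.10.9 were used.

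All 10 members are named. From other lists the text names the 3 highest genes and the lowest by mean TPM, or every gene in lists of up to 8. Irf1, H2-Aa, H2-Ab1, H2-Eb1, the single cell type markers named and the further genes marked so were chosen after their values were seen. The members and lists were chosen with earlier results of these data known. Values of some listed genes are not reported here.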

Additional observations from a re-analysis of the deposited data

How the results depend on the processing

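No paired analysis was possible because the 2 libraries form 1 group. From a single library, 7 to 8 members reached 1 TPM (7 without replicate 1, where Nlrc5 had 0.240 TPM), and H2-K1 and H2-D1 held 31.8% to 41.1% of summed member TPM. With the longest coding transcript alone, an alternative chosen after seeing the data, that share was 63.7%. Scaling by total counts moved the median log2 ratio of all genes from -0.06 to -0.40, gave 4 members at least 2-fold lower in place of 2 and 570 genes at least 2-fold higher in place of 1015, and put the median log2 ratio of the members at -1.17. That median was -0.70 with DESeq2 size factors, where the median of all genes was 0.07, and -0.99 from TPM. With a mean count of at least 100, 2920 genes were at least 2-fold lower in place of 1534. With no minimum beyond 1 count, the counts were 3581 lower and 3354 higher, 1 member (Erap1, 5 counts in replicate 2) was at least 2-fold higher, and the median over all 10 members was -0.42. The 18.5-fold smaller depth of replicate 2 limits H2-M3, Nlrc5 and Erap1, at 2, 3 and 5 counts.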
